A study of Musca domestica with 24 samples.

Results

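This account covers 80 testis genes of the house fly, Musca domestica, whose RNA level was lower in males raised warm than in males raised cool in the strain CSrab, and higher in males raised warm in the strain IsoCS. Polyadenylated RNA from testes and heads was sequenced in 24 libraries, 3 in each of 8 groups of strain, developmental temperature (18 °C or 29 °C) and tissue. Per the study's design text, the strains are isogenic apart from their proto-Y chromosomes, and the 3 libraries of a group are biological replicates. The labels name the strains only as CSrab and IsoCS, and they give no other allele, treatment, age or number of animals pooled.

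The members were chosen from measured values. A gene was eligible when it carried a LOC identifier, lay on chromosome element B, C, D or E and averaged at least 5 CPM (counts per M counts of the library, where M is mega) over the 12 testis libraries. For each strain the ratio was log2 of the mean CPM at 29 °C plus 0.5 over the mean CPM at 18 °C plus 0.5. The testis counts cover 16540 genes, of which 6619 were eligible, and 605 of these, 9.14%, had a ratio below 0 in CSrab and above 0 in IsoCS. The 80 members are those whose smaller ratio, in absolute size, was largest. They make up 13.2% of the genes with that sign pattern and 1.21% of the eligible genes. The testis temperature changes, and the testis strain differences at a single temperature, are therefore described here with no test.

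As background, house fly males carry the male determiner on proto-Y chromosomes, young Y chromosomes that still resemble the chromosomes they arose from and that occur on different chromosomes in natural populations. Which proto-Y either strain carries is not in the labels. Elements are the chromosome arms that fly genomes share, and A and F, which the rule leaves out, are not described here. A testis holds germ cells at successive stages of sperm production together with somatic cells, so a level in such a bulk sample reflects both how many cells of a type are present and how much RNA each holds, and these cannot be told apart.

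The testis libraries held 14.9 to 40 M counts and the head libraries 15.7 to 35.7 M. Replicate 3 of CSrab testis at 29 °C stood furthest apart in composition. Its 10 most abundant genes took 24.5% of its counts and its TMM factor, which corrects a library size for such dominance, was 0.747. It was the lowest library of its group for 65 of the 80 members, and for 74.8% of the eligible genes. Next came replicate 2 of IsoCS testis at 29 °C, with 16.5% in its 10 most abundant genes and a TMM factor of 0.801. That library was the lowest of its group for 31 members and for 60.9% of the eligible genes. Over the eligible genes the median ratio of 29 °C to 18 °C was -0.22 in CSrab and -0.32 in IsoCS on column totals, and 0.01 and -0.04 with TMM scaling. All 80 members kept both signs with TMM scaling. The tissue labels were checked with the few nerve and fat body genes found by symbol. The neuropeptide gene pdf had 4.89 to 23.3 CPM in head libraries and 0 to 0.15 CPM in testis libraries, and MdRdl, a GABA receptor subunit, had 1.47 to 3.58 CPM against 0 to 0.256 CPM. The other nerve genes found by symbol did not separate the tissues, with nAChRbeta3 at 69.1 to 119 CPM in head and 43.7 to 135 CPM in testis and para-like at 75 to 368 CPM against 34.6 to 191 CPM. No marker list for testis cells could be applied, since the tables give identifiers without product names.

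Across the members the CSrab ratio ran from -2.23 to -0.26 with a median of -0.68, and the IsoCS ratio from 0.26 to 4.69 with a median of 0.58. These are differences on the log2 scale of mean CPM and follow from the choice. Mean testis level ran from 5.03 to 1160 CPM with a median of 15.7 CPM, and mean head level from 0.00289 to 3630 CPM with a median of 14.2 CPM. CPM is not corrected for transcript length, so levels are compared within a gene only. Element B held 10 members, C 23, D 19 and E 28. In shares this is 12.5%, 28.7%, 23.8% and 35.0%, beside 20.7%, 26.1%, 22.5% and 30.7% of the eligible genes. RefSeq annotation matched 75 of the 80 identifiers. It lists 73 of them as protein coding, 1 as a long non-coding RNA and 1 as a miscellaneous RNA. Only LOC101897277 has another name there (Gst-2 and Gst-3, glutathione S-transferase, a family of detoxification enzymes). For the other members no function is annotated in the sources used here, and none is given.

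**Figure D1:**
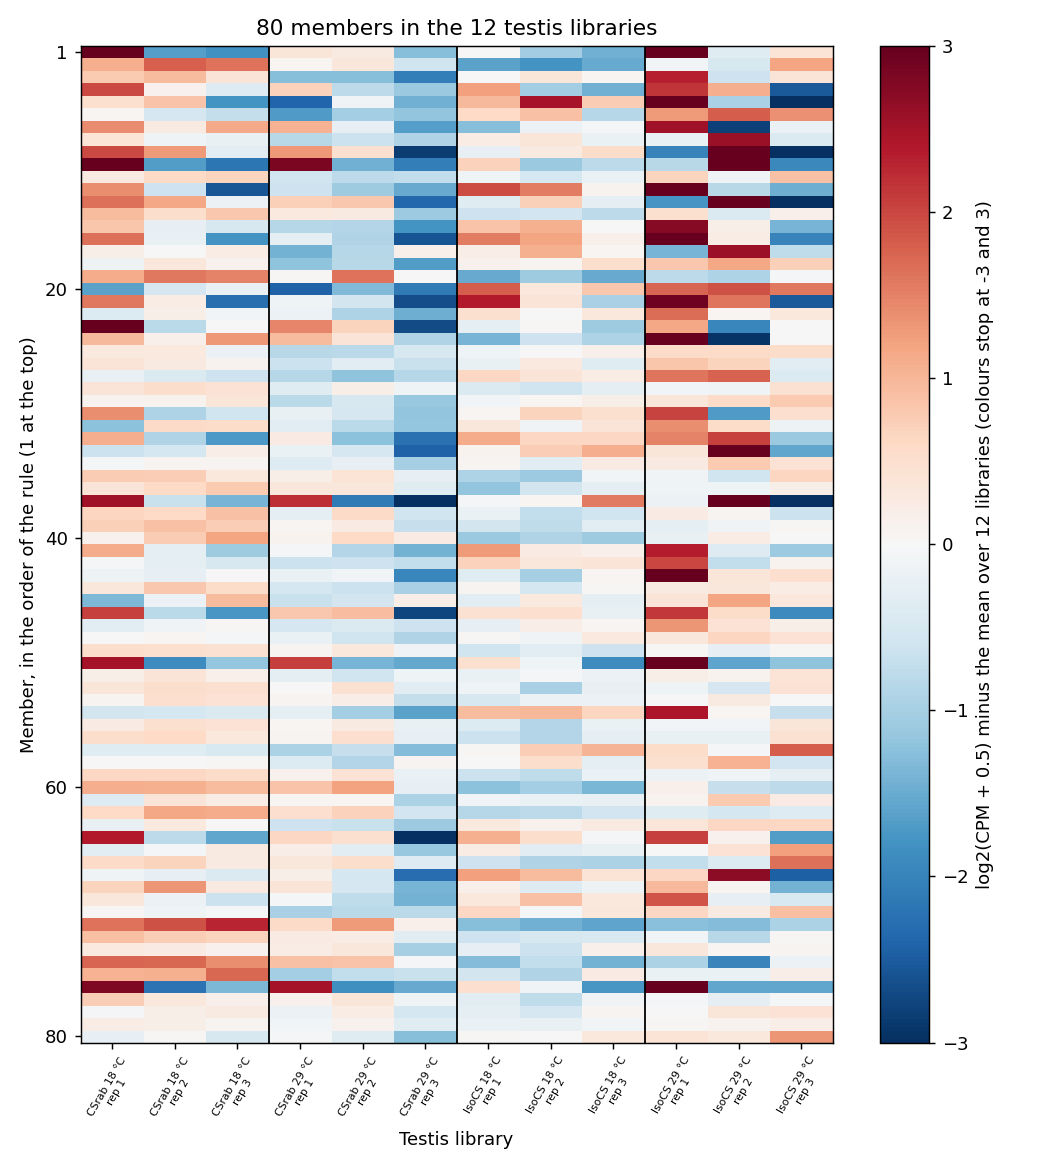
Each row is 1 of the 80 members in the order of the rule and each column 1 of the 12 testis libraries, with log2(CPM + 0.5) shown relative to the gene's mean over the libraries. Many rows are red in a single IsoCS 29 °C library, most often replicate 1, while CSrab 29 °C replicate 3 is the bluest library of its group for most rows.

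How the replicates behind the ratios lay differed widely among members. In CSrab, every 29 °C library lay below every 18 °C library for 31 members, where the share over eligible genes is 26.5%. In IsoCS, every 29 °C library lay above every 18 °C library for 28 members, where that share is 4.70%. Both held for 16 members (0.287% of eligible genes), and neither held for 37. With TMM scaling the counts were 22 in CSrab (17.8% of eligible genes), 41 in IsoCS (14.6%), 15 for both (0.438%) and 32 for neither. Because the rule chose on these means, the counts describe the members and are read no further.

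The highest testis library of a member was most often a warm IsoCS one. IsoCS 29 °C replicate 1 was highest for 25 members, replicate 2 for 19 and replicate 3 for 9. Of the CSrab 18 °C libraries, replicates 1 and 2 were each highest for 10 members and replicate 3 for 5. CSrab 29 °C replicate 2 was highest for the other 2, and no member peaked in an IsoCS 18 °C library.

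The order of the rule begins with LOC101895241, on element E. It had 34.4, 0.804 and 0.651 CPM in the 3 CSrab libraries at 18 °C, 4.73, 4.43 and 1.17 at 29 °C, 3.55, 1.46 and 0.992 in IsoCS at 18 °C, and 45.3, 2.64 and 4.89 at 29 °C. Replicate 1 alone is far above the others in the cool CSrab and the warm IsoCS group. On column totals the temperature groups overlap in both strains, and with TMM scaling they overlap in CSrab only. LOC101888634, also on E, gave 21.0, 34.4 and 30.7 CPM in CSrab at 18 °C and 10, 12.2 and 6.15 CPM at 29 °C. In IsoCS it gave 2.79, 2.43 and 3.01 CPM at 18 °C and 9.02, 6.68 and 22.5 CPM at 29 °C. Neither strain's temperature groups overlap for this gene, and it reached its highest levels in cool CSrab testes and its lowest in cool IsoCS testes.

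LOC101890728 had separate temperature groups in CSrab only. Its 7.92, 8.98 and 5.91 CPM at 18 °C were all above the 1.52, 1.51 and 0.662 CPM at 29 °C, the lowest CSrab ratio of all members (-2.23). In IsoCS it had 4.43, 5.77 and 4.62 CPM at 18 °C and 24.2, 2.68 and 5.88 CPM at 29 °C, so that replicate 1 carries the higher warm mean. LOC101887269 had 19.4, 13.0 and 11.2 CPM in cool CSrab testes and 5.38, 8.9 and 8.01 CPM in warm ones. In IsoCS its values were 28.5, 34.7 and 10.1 CPM at 18 °C and 46.2, 66.7 and 48.7 CPM at 29 °C. No temperature group overlaps the other in either strain.

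Most of the other genes among the first 10 have IsoCS means set by 1 warm library. LOC101898847 reached 138 CPM in IsoCS 29 °C replicate 1 beside 3.32 and 0.402 CPM in replicates 2 and 3. LOC101888061 reached 59 CPM in the same library beside 1.0 and 8.64 CPM. LOC101888952 reached 28.5 CPM in replicate 2 beside 3.72 and 3.07 CPM. Which library is the high one thus differs between genes. LOC101887872 (69.0 CPM) and LOC101893852 (63.2 CPM) were also high in replicate 2, with 1.3 and 0.0619 CPM, and 0.775 and 0.0929 CPM, in replicates 1 and 3. LOC105262120 was graded over its warm IsoCS libraries, with 20.7, 9.68 and 0.341 CPM.

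**Figure D2:**
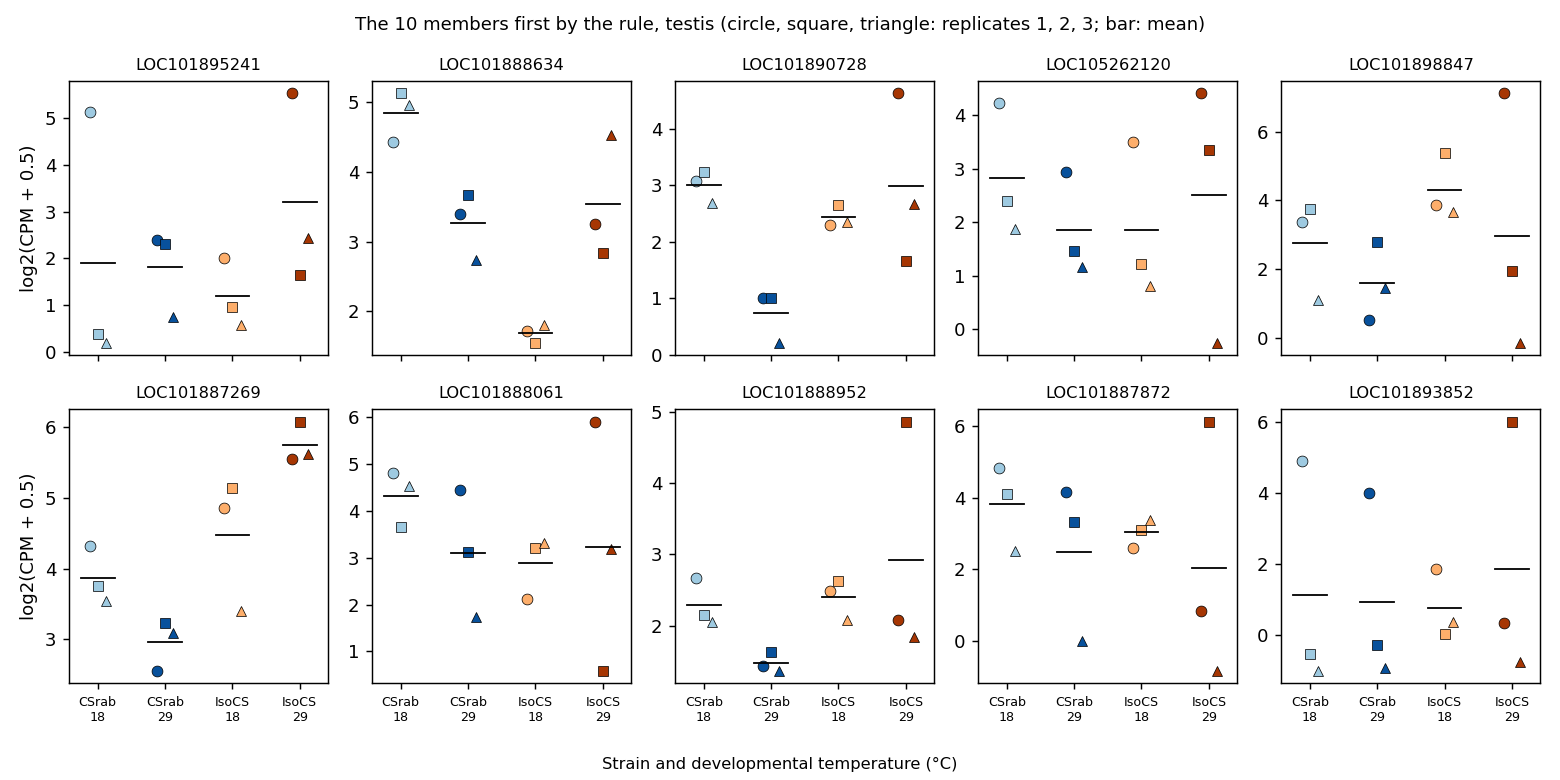
Points are log2(CPM + 0.5) in each testis library for the first 10 members by the rule, with a different symbol per replicate, and bars are the mean of the 3 log2 values. In LOC101888634 and LOC101887269 the warm and cool libraries separate in both strains, while in most other panels 1 warm IsoCS library sits far above the other 2.

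A set of 11 members had no overlap between temperatures in either strain on both scalings. Among the eligible genes the share was 0.287% on column totals and 0.438% with TMM scaling, and the share on both is not given. The rule chose on these values, so the set is a description. LOC101888634, LOC101887269, LOC101895320, LOC101901795 and LOC101895128 head them in the order of the rule, followed by LOC101899356, LOC105261891, LOC101892058, LOC101894787, LOC101901385 and LOC101896593. Those not named elsewhere were singled out after their values were seen. LOC101895320, on element B, had 19.2, 24.1 and 25.5 CPM in cool CSrab testes and 10.3, 9.04 and 9.3 CPM in warm ones. In IsoCS the same gene had 14.4, 10.9 and 13.8 CPM at 18 °C and 25.4, 14.5 and 29.5 CPM at 29 °C. Its warm CSrab libraries lie below every cool IsoCS library, and its cool CSrab libraries lie within the range of the warm IsoCS ones.

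LOC101895128, on element C, had 58.2, 82.8 and 71.0 CPM in cool CSrab testes and 28.1, 36.4 and 19.9 CPM in warm ones, against 70.9, 68.9 and 94.2 CPM and then 114, 146 and 108 CPM in IsoCS. The strains do not overlap when warm and do overlap when cool. LOC101894787, on element D, had 454, 632 and 531 CPM in cool CSrab testes and 248, 231 and 184 CPM in warm ones. In IsoCS it had 382, 251 and 367 CPM at 18 °C and 436, 459 and 421 CPM at 29 °C. LOC101899356 moved over a smaller range, from 8.43, 8.38 and 10.1 CPM to 4.24, 5.46 and 3.25 CPM in CSrab and from 7.28, 8.15 and 8.89 CPM to 10.2, 11.8 and 13.7 CPM in IsoCS.

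In a quasi-likelihood fit by edgeR to the testis counts, on TMM-scaled libraries, the members had a median log2 change from 18 °C to 29 °C of -0.51 in CSrab and 0.94 in IsoCS, which the choice fixes in sign. Same-numbered libraries deviated together between temperatures in the testes of both strains, so that warm and cool libraries can also be read by number. In CSrab all 3 numbered pairs were lower at 29 °C for 53 members, beside 45.3% of the eligible genes. In IsoCS all 3 were higher at 29 °C for 36 members, beside 10.3%. These counts, too, describe values that the rule used.

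For 26 members the highest IsoCS 29 °C testis library had more than 3 times the CPM of the second of that group, beside 3.7% of the eligible genes. The high library was replicate 1 for 17 of them, replicate 2 for 8 and replicate 3 for 1. These members had a median mean level of 79.5 CPM in head and 13.1 CPM in testis, and the other 54 had 8.25 CPM in head and 24.5 CPM in testis. The ratio in IsoCS stayed above 0 for 61 of the 80 members without IsoCS 29 °C replicate 1, for 70 without replicate 2 and for 78 without replicate 3. With the ratio taken from the mean of log2 values, 64 kept both signs. In CSrab, 69 stayed below 0 without 18 °C replicate 1 and 73 without 29 °C replicate 3.

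Genes that are strong in heads were also unevenly present over the testis libraries. The summed testis level of 405 non-member genes with at least 10 CPM in head and at least 32 times their testis level was 1270, 752 and 557 CPM in CSrab at 18 °C and 899, 908 and 432 CPM at 29 °C. In IsoCS it was 1850, 1670 and 1030 CPM at 18 °C and 1950, 921 and 595 CPM at 29 °C. Replicate 3 was the lowest of each group and replicate 1 the highest of every group but warm CSrab. The yolk protein gene yp3, a fat body marker and the only one of the fixed marker lists found by symbol, had 82.7 CPM in IsoCS 29 °C replicate 1 and 8.89 to 24.5 CPM in the other 11 testis libraries. The part of these differences in the single-library members was not tested.

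For 9 members replicate 1 was the highest library in all 4 testis groups, beside 5.03% of the eligible genes. Among them LOC101892335 and LOC101891119, which share a scaffold on element E in the deposited tables, had the highest IsoCS ratios of all members. LOC101892335 had 19.6, 0.469 and 1.1 CPM in cool and 14.4, 0.848 and 0.725 CPM in warm CSrab testes, then 4.43, 2.77 and 0.458 CPM in cool and 188, 0.68 and 1.05 CPM in warm IsoCS testes. LOC101891119 had 15.6, 0 and 0.401 CPM, then 12.6, 0.141 and 0.315 CPM in CSrab, and 2.76, 1.65 and 0.191 CPM, then 156, 0.28 and 0.279 CPM in IsoCS. Both have IsoCS ratios above 4 on the log2 scale (4.39 and 4.69), from a single library. In head neither had more than 3 counts in any library.

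**Figure D3:**
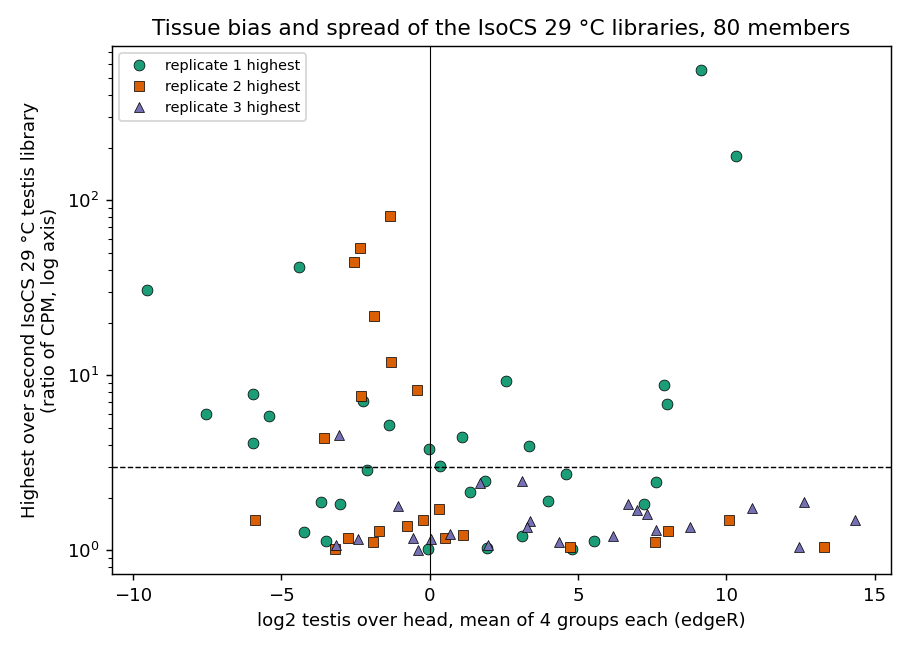
Each point is a member, placed by its fitted log2 testis level over head level and, on a log axis, by the CPM of its highest over its second IsoCS 29 °C testis library, with symbols for the replicate that was highest. Of the 26 members above the dashed line at 3, 14 passed as lower in testis than in head and 7 as higher. Of the other 54, 16 passed as lower and 34 as higher, beside 35.2% and 51.6% of the eligible genes. The line splits members by values that the rule used, so these counts are a description. The fitted values of members near 0 in head depend on the prior count.

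Members lay on 73 scaffolds of the deposited tables, 7 of which held 2 members. The members of a pair had similar profiles over the 12 testis libraries, with Pearson r of log2 levels from 0.76 to 1.0. This is a description that shares libraries and the choice of members and carries no test. No r is given for members on different scaffolds. Not all pairs are close neighbours, since 0 to 11329 entries lay between their members in the RefSeq order. For LOC101892335 and LOC101891119, with r of 1.0, it was 3673. LOC101887872 and LOC101887709, direct neighbours in the RefSeq order on element C, had 69.0 and 69.8 CPM in IsoCS 29 °C replicate 2 and 0.0619 to 1.57 CPM in the other libraries of that group. LOC101898540 and LOC101898365, also direct neighbours on C, had 202 and 74.6 CPM in replicate 1 beside 34.4 and 11.2, and 9.56 and 1.67 CPM, in replicates 2 and 3. Adjacent members thus shared their high library, replicate 2 for the first pair and replicate 1 for the second.

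The most abundant member by mean testis level was LOC101897593, on element D, at 1160 CPM. Its cool CSrab libraries had 1700, 1690 and 1620 CPM and its warm ones 1200, 1490 and 958 CPM. The IsoCS libraries had 699, 643 and 964 CPM at 18 °C and 969, 1020 and 913 CPM at 29 °C. In CSrab the groups do not overlap, and in IsoCS they overlap on column totals but not with TMM scaling. LOC101888648, at 434 CPM, had 408, 479 and 510 CPM, then 373, 497 and 296 CPM in CSrab, and 353, 297 and 449 CPM, then 425, 545 and 573 CPM in IsoCS. Its temperature groups overlap in both strains on column totals, and only in CSrab with TMM scaling. In IsoCS each warm library was above the cool library of the same number, while the CSrab pairs went both ways.

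LOC101889194 averaged 325 CPM in testis. Its range was 402 to 449 CPM in cool and 250 to 430 CPM in warm CSrab testes, and 157 to 282 CPM in cool and 218 to 420 CPM in warm IsoCS testes. These groups, too, overlap in both strains on column totals and only in CSrab with TMM scaling. The glutathione S-transferase gene LOC101897277 had 214, 148 and 108 CPM in cool and 165, 99.2 and 63.2 CPM in warm CSrab testes. In IsoCS it had 211, 310 and 209 CPM at 18 °C and 626, 141 and 122 CPM at 29 °C. Both lower warm IsoCS libraries lie below every cool one, so replicate 1 alone sets the sign of its IsoCS ratio. LOC101892058, on element E, had 237, 265 and 238 CPM in cool and 149, 171 and 89.0 CPM in warm CSrab testes, against 97.9, 84.8 and 114 CPM and then 118, 134 and 148 CPM in IsoCS. Its temperature groups are separate in both strains.

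At the threshold of the rule the ratios are small. Ranked 79, LOC101896150 had ratios of -0.26 in CSrab and 0.28 in IsoCS, and LOC101891861, ranked 80, had -0.26 and 0.64. Just outside, LOC101888438 at rank 81 had -0.25 and 2.61, and LOC101888434 at rank 82 had -0.37 and 0.25.

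The strain difference averaged over both temperatures is a contrast that, with equal spread in all groups, is uncorrelated with the temperature ratios. The members include genes whose warm IsoCS libraries spread widely, so for those the average and the ratio share a high library. The edgeR fit took the libraries of a strain as independent, although same-numbered testis libraries deviated together between temperatures. The SE and p of the average may therefore be too small. All 80 members were tested with the same edgeR fit, and a gene was called when its p, adjusted by Benjamini-Hochberg over 13271 genes, was under 0.05. Of these, 34 differed between the strains (42.5%), 19 higher and 15 lower in CSrab. Over all genes tested 23.4% were called, 12.6% higher and 10.8% lower, and over the eligible genes 18.8%. The rule's minimum of 5 CPM over all testis libraries bears on these counts, because 5 members averaged under 5 CPM in IsoCS and 11 in CSrab and so were eligible only through the other strain. Those 16 include 4 of the members called higher and 3 of those called lower. Among the 64 members with at least 5 CPM in each strain, 15 were higher and 12 lower in CSrab.

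LOC101888266, on element C, was highest in CSrab relative to IsoCS among the members that were eligible only through CSrab, whose differences are given as descriptions. Its CSrab testes had 10.5, 12.9 and 16.8 CPM at 18 °C and 4.79, 8.1 and 3.5 CPM at 29 °C, and its IsoCS testes 0.687 to 0.971 CPM and 0.96 to 1.36 CPM. All 6 CSrab libraries were above all 6 IsoCS libraries, with a log2 difference of 3.18 ± 0.221 (SE). LOC101895633, also eligible only through CSrab, had 4.04 to 13.8 CPM over the CSrab testes and 1.11 to 3.99 CPM over the IsoCS testes, again without overlap (2.32 ± 0.306). LOC101889783, another of them, had 9.37 to 33.5 CPM in CSrab and 2.08 to 8.48 CPM in IsoCS (2.27 ± 0.265). Eligible in both strains, LOC101898866 had 19.3 to 53.1 CPM in CSrab and 8.51 to 25.6 CPM in IsoCS, where the lowest CSrab and the highest IsoCS library overlap (1.70 ± 0.223, adjusted p = 0.000419 by edgeR).

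Lower in CSrab was LOC105261899, on element E, a member eligible only through IsoCS, with 0.767, 2.21 and 2.86 CPM in cool and 0.207, 1.04 and 0.378 CPM in warm CSrab testes. Its IsoCS testes had 12.9, 4.27 and 6.26 CPM at 18 °C and 12.3, 13.8 and 10.9 CPM at 29 °C, every library above every CSrab library. The log2 difference was -3.25 ± 0.462 (SE), again a description. LOC101887269, whose values are given above, differed by -1.79 ± 0.312 (adjusted p = 0.00229 by edgeR), an average of -0.72 at 18 °C and -2.86 at 29 °C. The difference of LOC101901566 was -1.58 ± 0.361 (adjusted p = 0.0101 by edgeR). LOC101901566 had 5.6 to 11.4 CPM in CSrab and 9.97 to 47.1 CPM in IsoCS, with its warm replicate 3 as the lowest IsoCS library. LOC101889684 had 16.2 to 41.4 CPM in CSrab and 31.1 to 272 CPM in IsoCS, where its warm libraries ran 272, 52.5 and 31.1 CPM. Its difference was -1.75 ± 0.473 (adjusted p = 0.0226 by edgeR), and the adjusted p rose to between 0.051 and 0.0586 without any 1 of 4 CSrab libraries, 18 °C replicate 1 or 2 or 29 °C replicate 2 or 3.

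The count of members called moved with single libraries. It was 46 without IsoCS 29 °C replicate 3 and 24 without CSrab 18 °C replicate 2, against 34 with all. The share of all genes called in those fits is not given here, so whether the members moved more than other genes cannot be told.

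**Figure D4:**
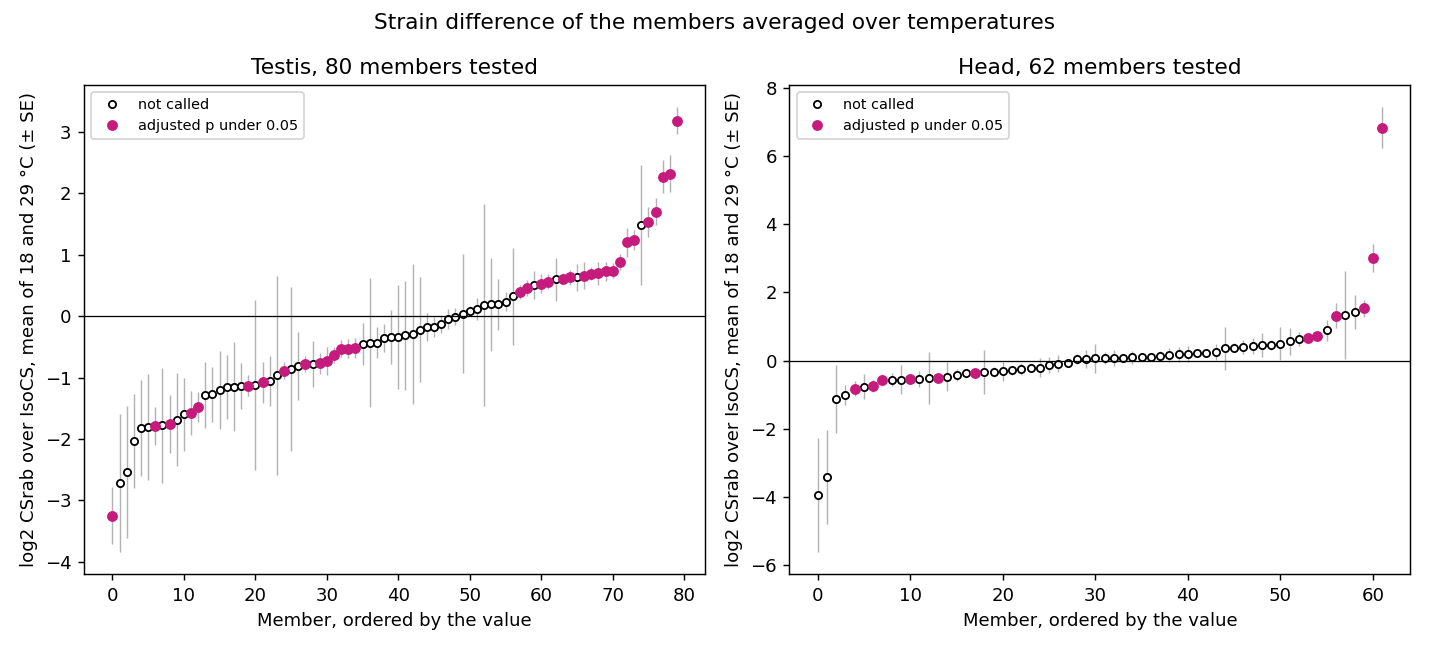
Points are the fitted log2 level of each member in CSrab over IsoCS, averaged over 18 °C and 29 °C, with bars of 1 SE, ordered by value, for testis (left) and head (right). Filled points passed an adjusted p of 0.05, 34 of 80 in testis and 12 of 62 in head.

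In heads, libraries that the rule did not use, 62 members passed the filter on low counts. The filter was applied without regard to the members, and the 18 that failed it had low counts in head. Testis and head levels differed for 71 of the 80 members in an edgeR fit of all 24 libraries, 41 higher and 30 lower in testis. Over all genes 87.2% differed, 45.9% higher and 41.3% lower in testis. Among the eligible genes, which share the minimum testis level of the members, 86.8% differed, 51.6% higher and 35.2% lower. The members include genes of opposite tissue bias, in a split close to that of the eligible genes.

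At the testis end, LOC101897593 had 643 to 1700 CPM in testis libraries and 0 to 0.352 CPM in head libraries, at most 10 counts. LOC101888648 had 296 to 573 CPM in testis and 0 to 0.211 CPM in head. LOC101889194 had 157 to 449 CPM in testis and 0 to 0.111 CPM in head, and LOC101891861 52.3 to 322 CPM in testis and 0 to 0.0704 CPM in head. All 4 passed (adjusted p from 8.32e-18 to 4.99e-15 by edgeR), and no fold is given because head counts were at or near 0. In total 9 members had at most 3 counts in every head library.

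At the head end, LOC101900425, on element D, had 2390 to 5120 CPM in head and 0.0501 to 40.6 CPM in testis. Its log2 testis level over head level was -9.53 ± 0.778 (adjusted p = 7.08e-10 by edgeR). LOC101895259 had 310 to 2690 CPM in head and 0.851 to 41.6 CPM in testis (-7.55 ± 0.434, adjusted p = 2.96e-12 by edgeR). LOC101890728 had 156 to 780 CPM in head and 0.662 to 24.2 CPM in testis (-5.97 ± 0.361, adjusted p = 6.72e-12 by edgeR), and LOC101898365 201 to 1620 CPM in head and 0.946 to 74.6 CPM in testis (-5.97 ± 0.572, adjusted p = 7.98e-09 by edgeR). The highest testis library of all 4 was IsoCS 29 °C replicate 1. In that library the summed head-strong genes and yp3 were also at their highest, as given above, and their part in these 4 genes' testis values was not tested.

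The head strain difference, averaged over temperatures, passed for 12 of the 62 members in the edgeR fit of the head libraries, 6 higher and 6 lower in CSrab. Over all 12347 genes tested in head 12.2% were called, 6.80% higher and 5.43% lower. Same-numbered CSrab heads deviated together between temperatures, which this fit did not take into account, so its p-values may be too small. The count was 6 without CSrab head 18 °C replicate 2, IsoCS head 18 °C replicate 3 or IsoCS head 29 °C replicate 1. It was 7 when the library left out was CSrab head 18 °C replicate 1, CSrab head 29 °C replicate 2 or IsoCS head 18 °C replicate 1. The share of all genes called without these libraries is not given here, so the counts are read no further. LOC105262120 had the widest difference. Its CSrab heads had 23.4, 21.7 and 43.8 CPM at 18 °C and 20.3, 10.1 and 51.7 CPM at 29 °C. The IsoCS heads had 0.0541, 0.161 and 0.0637 CPM at 18 °C, 1 to 3 counts, and 0.577, 1.21 and 0.171 CPM at 29 °C, 4 to 35 counts. Every CSrab head was above every IsoCS head (adjusted p = 0.000114 by edgeR), and the fitted log2 difference of 6.85 ± 0.599 rests on those few counts. In testis the same gene differed by -0.34 ± 0.854 (adjusted p = 0.814 by edgeR).

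LOC105261901 had 0.384 to 0.915 CPM in cool and 2.63 to 5.32 CPM in warm CSrab heads, and 0.0637 to 0.482 CPM over the IsoCS heads. These are 7 to 26 and 71 to 190 counts in CSrab and 1 to 9 counts in IsoCS, so its head values rest on few counts outside the warm CSrab heads. Its log2 strain difference was 3.00 ± 0.412 in head (adjusted p = 0.00164 by edgeR) and -0.89 ± 0.135 in testis (adjusted p = 0.00102 by edgeR), opposite in sign. LOC101899472 had 2.15 to 4.27 CPM in CSrab and 0.381 to 1.82 CPM in IsoCS heads, without overlap (1.53 ± 0.255, adjusted p = 0.0045 by edgeR). LOC101895259 was higher in CSrab heads by 1.32 ± 0.364 (adjusted p = 0.0421 by edgeR), a call lost without any 1 of 9 head libraries.

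Among the members lower in CSrab heads, LOC101898540 had 895 to 1490 CPM in CSrab and 1810 to 2990 CPM in IsoCS heads, without overlap (-0.75 ± 0.168, adjusted p = 0.0184 by edgeR). LOC101893440 had 3.19 to 8.3 CPM against 7.58 to 20.5 CPM (-0.83 ± 0.219, adjusted p = 0.0364 by edgeR), LOC101888952 had 18.5 to 27.4 CPM against 25.6 to 47.4 CPM (-0.54 ± 0.145, adjusted p = 0.0393 by edgeR), and LOC101892058 had 4.85 to 7.01 CPM against 6.86 to 13.1 CPM (-0.58 ± 0.169, adjusted p = 0.05 by edgeR, at the threshold). Of these only LOC101898540 kept its call without any single head library. A group of 4 members differed between strains in both tissues. This is 16.0% of the 25 testis calls tested in head, where 12.2% of all genes were called, and 33.3% of the head calls. The share of all genes called in both tissues is not given here, so the count is read no further. LOC101901385 (0.61 in testis and 0.67 in head) and LOC101890092 (-1.48 and -0.50, the head call lost under 11 of 17 alternatives) had the same sign in both, while LOC101892058 (0.69 and -0.58, the head call lost under 15 of 17 alternatives) and LOC105261901 did not. LOC101890092 and LOC101901385 are named because they belong to these 4.

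The strain difference in testis minus that in head, a test over all 24 libraries added after the data had been seen, passed for 14 of the 80 members by edgeR, 5 positive and 9 negative. These are 17.5% of the members, beside 11.2% of all genes (4.69% positive and 6.54% negative) and 10.9% of the eligible genes. The count includes LOC101889783, eligible only through CSrab, and LOC101895259, eligible only through IsoCS, whose differences are given as descriptions. As with the testis average, some members share a high warm IsoCS library between this contrast and the ratio of the rule. Without IsoCS testis 29 °C replicate 3 the count was 24, and the share of all genes in that fit is not given here.

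Temperature left no called member in head. In the same edgeR fit 0 of 62 passed in CSrab heads, where 0.283% of all genes did, and 0 of 62 in IsoCS heads, where 0.697% did. At an unadjusted p under 0.05 there were 11 members in CSrab (17.7% of 62, beside 16.2% of all genes) and 14 in IsoCS (22.6%, beside 18.7%). DESeq2 called 6 members in CSrab and 4 in IsoCS. The share of all genes that DESeq2 called is not given here, so these counts are read no further. The CSrab calls were lower at 29 °C for LOC101901025 (log2 change of -2.76), LOC101892756 (-2.74), LOC101890725 (-0.76) and LOC101889783 (-0.55), and higher for LOC105261901 (2.38) and LOC101897637 (0.53). Its IsoCS calls were LOC101889310 (log2 change of 1.21), LOC101889684 (-1.18), LOC101897637 (0.61) and LOC101899472 (-1.28), again in both directions. These genes are named because DESeq2 called them. The median log2 change of the members from 18 °C to 29 °C was 0.03 in CSrab and 0.07 in IsoCS heads, beside 0.01 over all genes in each strain.

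The head interaction, the CSrab temperature change minus the IsoCS one, also called 0 of 62 members by edgeR, beside 0.0243% of all genes. Its unadjusted p was under 0.05 for 4 members (6.45%, beside 4.97% of all genes). DESeq2 called 1, LOC105261901, with a log2 interaction of 3.36 ± 0.897 and an adjusted p of 0.0454, positive where the rule made the testis interaction negative, and resting on the low head counts given above. Its warm CSrab heads, given above, were all higher than its cool ones. The same ratios as in the rule, computed from head levels, were below 0 in CSrab and above 0 in IsoCS for 16 of the 51 members with at least 5 CPM in head. This is 31.4%, beside 29.4% of 5548 eligible genes with that head level.

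**Figure D5:**
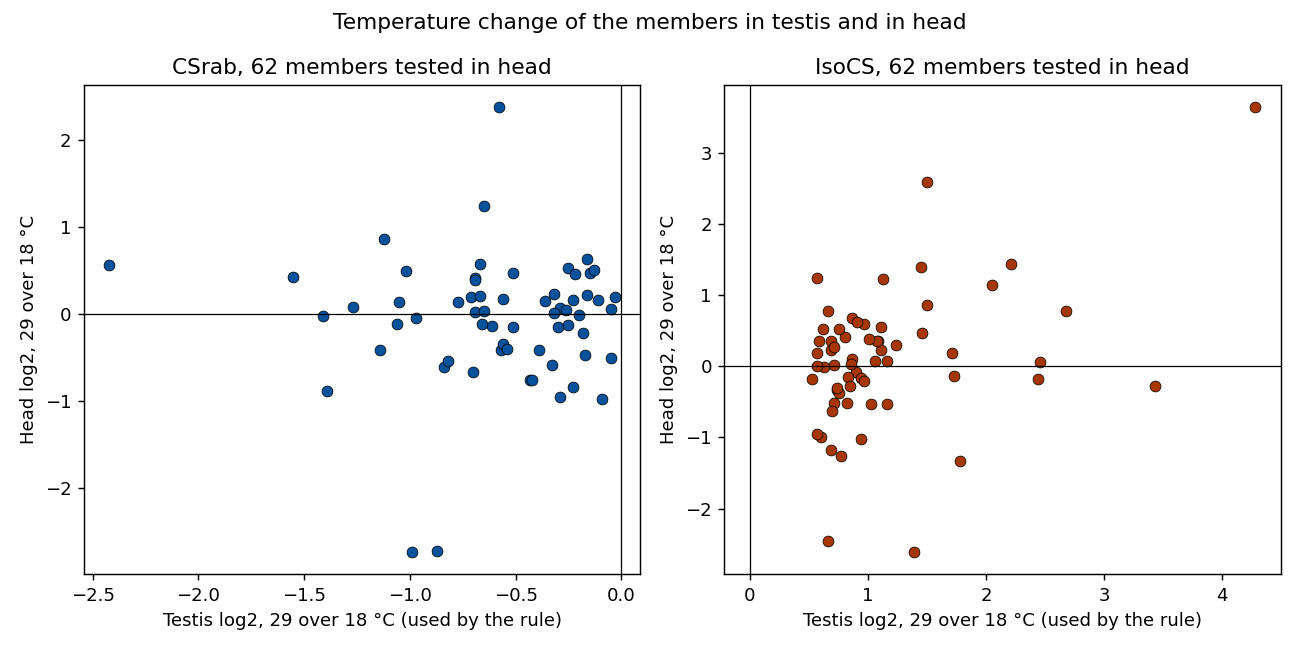
Each point is a member tested in head, placed by its fitted log2 change from 18 °C to 29 °C in testis, which the rule used, and in head, with CSrab on the left and IsoCS on the right. In head 33 of 62 members lie above 0 in CSrab and 36 of 62 in IsoCS.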

How the data were processed

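Per the labels' protocols, RNA was extracted in TRIzol with a column kit and made into stranded polyA libraries. For each tissue the authors deposited unnormalized counts per gene and library, and beside them an adjusted p-value that the header ties to the interaction of strain and temperature. Per the submitters' processing notes HISAT2, SAMtools, HTSeq and DESeq2 were used. Their versions and settings, and how reads from similar gene copies were counted, are not given in the sources used here. All count columns mapped to a library, with 0 left over.

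The members and lists were chosen with earlier results of these data known. Each tissue's 12 libraries were fitted with 1 coefficient per group in R 4.3.3, edgeR 4.0.16 and limma 3.58.1 (filterByExpr with a minimum count of 10 and minimum total of 15, TMM, quasi-likelihood F test, Benjamini-Hochberg adjustment over all genes tested, calls under 0.05). Testis over head used all 24 libraries. The SE is the size of a log2 change over the square root of its F. DESeq2 1.42.0 was an alternative, with other scalings, filters, a replicate block and leaving out each library. The procedure was tested on simulated data. Per-library precision is limited by depth. The p-values weigh a difference between groups against the spread between libraries within groups, estimated over all groups and moderated across genes. For strain differences averaged over temperatures they may be too small. Same-numbered libraries deviated together in CSrab heads and in both strains' testes, but the fit took them as independent. For these differences the replicate block joined equal numbers across strains, where they did not pair, so it does not remove this.

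Genes were named by a rule: the first 10 members, those ranked 79 to 82, the 6 most abundant, up to 4 called per direction in each test the rule did not use, neighbouring members, and members of gene lists. The lists and promoter motifs planned from product names and sequences were not used here. Same-numbered libraries deviated together, with every pair's correlation over 0.1, between the temperatures in CSrab heads (0.552, 0.261 and 0.456), CSrab testes and IsoCS testes, but not between strains or in IsoCS heads. With the block, CSrab heads still had 0 members called for temperature.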

Additional observations from a re-analysis of the deposited data

Results flagged for a closer look

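These results were picked out because the strain difference was not the same in both tissues, by the edgeR test of that difference. Each value below is the log2 CSrab-over-IsoCS difference in testis minus that in head. They are the called members that the naming rule reaches, and those eligible through a single strain are given as descriptions. The testis part averages over temperatures between which the rule chose opposite changes, so it need not hold at each.

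More positive in testis was LOC101889783 at 2.15 ± 0.287 (SE), a description, with 2.27 in testis and 0.08 in head. It was eligible in testis only through CSrab. LOC101888634 was at 1.79 ± 0.383 (adjusted p = 0.00509 by edgeR, with 1.53 and -0.32). Its 1.53 averages 3.45 at 18 °C and -0.4 at 29 °C, differences that share values with the rule. LOC101887945 was at 1.41 ± 0.319 (adjusted p = 0.00764 by edgeR, with 1.24 and -0.21). LOC101892058 was at 1.23 ± 0.204 (adjusted p = 0.000606 by edgeR, with 0.69 and -0.58). LOC101887945 had 26.3 to 88.6 CPM over the CSrab testes and 21.7 to 30.7 CPM over the IsoCS testes, and 0.956 to 2.91 CPM over all heads.

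LOC105262120 had the most negative value, -7.23 ± 1.21 (adjusted p = 0.00062 by edgeR), which rests on its head difference of 6.85 against few IsoCS head counts. LOC105261901 followed with -3.95 ± 0.385 (adjusted p = 2.08e-06 by edgeR, with -0.89 in testis and 3.0 in head, where IsoCS heads had 1 to 9 counts). LOC101895259 gave -2.54 ± 0.669, a description, with -1.16 in testis, where it was eligible only through IsoCS, and 1.32 in head. Its warm IsoCS testes, which the rule used, had 41.6, 6.16 and 6.9 CPM. LOC101887269 gave -2.26 ± 0.415 (adjusted p = 0.00141 by edgeR, with -1.79 and 0.42). Its -1.79 averages -0.72 at 18 °C and -2.86 at 29 °C, which also share values with the rule. LOC101901566 gave -1.35 ± 0.398 (adjusted p = 0.035 by edgeR, with -1.58 and -0.29). LOC101901566 lost its call under 10 of 29 alternatives, each without 1 library, while the 8 before it kept theirs under all alternatives tried.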

How the results depend on the processing

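Of the 80 members 47 were again among the first 80 with TMM-scaled CPM, 43 with a minimum of 1 CPM, 51 with ratios from the mean of log2 values, and 51 to 69 without 1 library (51 without CSrab testis 29 °C replicate 3). For head temperature, DESeq2 called 6 members in CSrab and 4 in IsoCS, and for the head interaction 1, against 0 each by edgeR. These DESeq2 counts have no share over all genes beside them. Leaving out 1 library kept all 3 edgeR counts at 0. The replicate block gave 35 members for the testis strain average, 9 for the head strain average and 70 for testis over head. Within strain it called 3 members for temperature in IsoCS heads, where equal numbers did not pair the libraries (LOC101889310, LOC101889684 and LOC101890830), and it moved no other count by over 1.5 times. Without 1 library the members called ranged from 24 to 46 for the testis strain average and from 6 to 11 for the head strain average, where the count was 6 without CSrab 18 °C replicate 2, IsoCS 18 °C replicate 3 or IsoCS 29 °C replicate 1. They ranged from 69 to 73 for testis over head, and from 11 to 24 for the strain difference in testis minus that in head (24 without IsoCS testis 29 °C replicate 3). The counts without 1 library and those with the block, too, have no share over all genes beside them. Of 884 alternatives of 40 results of single genes, 814 kept their direction and side of the threshold, 67 lost the call and 3 reversed, all 3 for the uncalled testis strain difference of LOC105262120 (0.04 with the replicate block, and -0.86 to 0.46 without 1 library). The losses fell on LOC101890092, LOC101892058, LOC101893440, LOC101895259 and LOC101888952 in head, LOC101889684 in testis and LOC101901566 between tissues, and the cause was not tested. Depth limits the 9 members with at most 3 counts in every head library, for which no head difference was detectable.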
